A study of Mus musculus with 5 samples.

Results

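The nuclear genes that copy, package and transcribe mitochondrial DNA were followed in mouse hematopoietic stem cells (HSCs), the rare bone marrow cells that renew the blood lineages. The list named 10 genes, Tfam, Polrmt, Tfb1m, Tfb2m, Polg, Polg2, Ssbp1, Lrpprc, Slirp and Pprc1, and its members were taken by gene symbol, without a cutoff on measured values, at a time when earlier results of these data were known. Each gene was read from the array feature that names that gene alone and has the highest mean over all arrays. Of the 10 genes, 9 could be read in this way, out of 22180 genes so represented in the whole data set. Slirp lies on a feature that also names another gene, and no value is given for it.

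Hematopoietic stem and progenitor cells from C57BL/6 mice were cultured for 24 h with 5 µM all-trans retinoic acid (ATRA), a vitamin A metabolite that activates nuclear retinoic acid receptors, or with its solvent DMSO. HSCs were sorted by flow cytometry after the culture, so the measured cells are those that still met the sort gate. Their RNA was measured on 5 Affymetrix arrays, 2 from ATRA cultures and 3 from DMSO cultures. The labels do not say whether replicates came from separate animals or cultures, so each p-value reflects the spread among these arrays alone, and that spread may be only technical.

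Mitochondria keep a small circular genome that encodes core subunits of the respiratory chain, and every protein that copies or transcribes it is encoded in the nucleus. TFAM, an HMG-box protein, packages this DNA and bends its promoters, where it recruits the single-subunit polymerase POLRMT together with TFB2M, which melts the promoter. Replication is carried out by polymerase gamma, made of the catalytic subunit POLG and the accessory subunit POLG2, with the single-stranded DNA binding protein SSBP1 on the exposed strand. LRPPRC and SLIRP form a complex that stabilises mitochondrial messenger RNAs, and PPRC1 is a nuclear coactivator of the PGC-1 family that acts with NRF1 and GABP on genes for mitochondrial proteins. Quiescent HSCs are known for a low reliance on mitochondrial respiration.

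Promoters of several such genes are known to be bound by GABP, an ETS factor also called NRF-2, so the start regions were searched for its core letters and the matches are shown here. Windows from 250 bases before to 50 bases after the start site were taken from RefSeq (mouse build GRCm38.p6), and all 10 genes had 1. The letters CCGGAAG, read on both strands, were present in 6 of the 10 windows and in 8.86% of the 32851 windows of all genes in that table. For Tfam, Polg and Ssbp1 the annotated gene begins farther out, so their matches lie inside it. In each of the 6 a match began 29 to 48 bases before the start site used. The following lines give these matches 5′ to 3′ along the gene, with the ETS letters or their reverse complement in capitals and 10 bases on either side.
Tfam, chr10:71238075-71238101, minus strand: ctgccgcggaCCGGAAGtccgggcttc
Polrmt, chr10:79746608-79746634, minus strand: cctaagagcgCTTCCGGcagtcgcaga
Polg, chr7:79466295-79466321, minus strand: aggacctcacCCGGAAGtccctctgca
Polg2, chr11:106779550-106779576, minus strand: gggtgacgctCTTCCGGgggcgtggtc
Ssbp1, chr6:40471411-40471437, plus strand: gctccgtgcgCCGGAAGcgagccgctg
Slirp, chr12:87443838-87443864, plus strand: acagtttggcCCGGAAGcagaactcga

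Slirp held a further match 146 and another 11 bases before its start site. The other motifs searched were TGCGCA, the core of an NRF1 site, in 2 of the 10 windows (7.76% of all windows), GGGCGG, a GC box, in 6 (35.7%), CACGTG, the E-box bound by MYC, in 0 (7.15%), and AGGTCA, a half-site of nuclear receptors such as the retinoic acid receptors, in 1 (16.3%), that of Pprc1. All were read on both strands, and none overlapped the ETS letters. A match is a description of the letters, and its absence says only that they are not in that window.

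The next lines print the stretch before the outermost annotated start of 3 genes that had lower values with ATRA, from the same build, with ETS and NRF1 core letters in capitals. Polrmt has both, while Lrpprc and Pprc1 have neither in their 300-base windows. The Tfam window lies inside the annotated gene and is therefore not printed beyond the match above.
Polrmt, chr10:79746605-79746831, minus strand: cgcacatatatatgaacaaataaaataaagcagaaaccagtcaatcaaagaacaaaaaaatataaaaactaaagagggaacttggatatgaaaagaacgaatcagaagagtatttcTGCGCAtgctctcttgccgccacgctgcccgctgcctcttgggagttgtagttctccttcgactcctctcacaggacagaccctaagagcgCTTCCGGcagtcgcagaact
Lrpprc, chr17:84790787-84791036, minus strand: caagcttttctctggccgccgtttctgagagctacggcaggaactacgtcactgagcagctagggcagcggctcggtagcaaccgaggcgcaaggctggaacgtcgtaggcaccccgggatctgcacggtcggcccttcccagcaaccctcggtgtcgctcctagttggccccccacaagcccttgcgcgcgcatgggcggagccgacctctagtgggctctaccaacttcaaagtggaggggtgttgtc
Pprc1, chr19:46056289-46056525, plus strand: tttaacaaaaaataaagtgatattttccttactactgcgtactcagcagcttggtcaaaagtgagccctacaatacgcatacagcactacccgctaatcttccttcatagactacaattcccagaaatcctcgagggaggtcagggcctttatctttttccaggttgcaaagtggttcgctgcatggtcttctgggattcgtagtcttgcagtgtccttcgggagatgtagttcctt

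Tfam and Polrmt, whose proteins act at the mitochondrial promoter, fell with ATRA, as did the RNA-stabilising factor Lrpprc and the coactivator Pprc1. The falls were between 1.91-fold for Polrmt and 3.28-fold for Tfam. The polymerase gamma subunit genes, the related genes Tfb1m and Tfb2m, and Ssbp1 did not pass. Every one of the 9 measured genes had a lower mean in ATRA than in DMSO. Once the typical difference of genes at the same DMSO level was subtracted, the members' median difference was 0.02. In single ATRA arrays, members such as Tfam and Ssbp1 still lay apart from genes of their level, as the following values show.

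Tfam, the gene of the packaging and transcription factor, was at 6.37 and 5.19 in ATRA replicates 1 and 2, against 7.69, 7.30 and 7.49 in DMSO replicates 1, 2 and 3. These and all values below are log2 expression as deposited, and a difference of 1 is a 2-fold change. Both ATRA arrays lay below all DMSO arrays, and replicate 2 was much the lower. Tfam fell by 1.71 on the log2 scale (SE 0.39, limma adjusted p = 0.0449), or 3.28-fold. Its ATRA mean of 5.78 lies below the median of all features (6.07), so this fold rests on a dim ATRA signal. In all, 7 of the 9 members had an ATRA mean above that median, and all 9 a DMSO mean above it. The other member with a dim ATRA mean was Tfb2m (5.96, with 4.89 in replicate 2). Ssbp1 was also below that median in ATRA replicate 2 (4.98).

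The mitochondrial RNA polymerase gene Polrmt had values of 7.19 and 6.79 in the ATRA arrays and 8.21, 7.78 and 7.78 in the DMSO arrays. The groups did not overlap. Polrmt fell by 0.94 (SE 0.22, limma adjusted p = 0.047).

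TFB2M and TFB1M are related proteins, the first a transcription factor and the second a methyltransferase of mitochondrial ribosomal RNA. Tfb2m was at 7.03 and 4.89 with ATRA, against 7.81, 7.34 and 7.30 with DMSO. Tfb1m stood at 8.03 and 6.56 with ATRA, against 8.60, 8.04 and 8.28 with DMSO. In both genes the ATRA values lay below all DMSO values, but replicate 1 lay next to the lowest DMSO array and replicate 2 far below it. The log2 differences of -1.53 for Tfb2m (SE 0.68, limma adjusted p = 0.169) and -1.01 for Tfb1m (SE 0.49, limma adjusted p = 0.193) did not pass.

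The 3 features that name Tfb2m did not move alike. The one used was the brightest, and the others differed by -0.73 (SE 0.29, limma adjusted p over all features 0.156) and 0.04 (SE 0.19, limma adjusted p over all features 0.875). With the mean of the 3 features in its place, Tfb2m passed with a log2 difference of -0.74 (limma adjusted p = 0.0424).

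The polymerase gamma genes had the smallest differences of the list. Polg, which encodes the catalytic subunit, was at 6.29 and 6.79 in ATRA, against 7.02, 6.86 and 6.86 in DMSO. Here replicate 1 was the lower ATRA array, and replicate 2 lay just under the DMSO range. Polg2, for the accessory subunit, was at 7.07 and 6.47 in ATRA, against 7.07, 7.37 and 6.73 in DMSO, and the groups overlapped. Differences were -0.38 for Polg (SE 0.19, limma adjusted p = 0.211) and -0.28 for Polg2 (SE 0.28, limma adjusted p = 0.438).

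Ssbp1 gave the widest split of the list. Its values were 11.23 and 4.98 in ATRA replicates 1 and 2, against 9.92, 9.87 and 9.81 in the DMSO arrays. Replicate 1 lay above all DMSO arrays and replicate 2 below all of them, 6.25 log2 units apart, while the DMSO arrays spanned 0.12. The mean difference of -1.76 (SE 1.90, limma adjusted p = 0.469) therefore describes neither ATRA array. The other feature naming Ssbp1 did not share the rise of replicate 1, with 7.01 and 6.26 in ATRA and 7.01, 7.11 and 7.01 in DMSO.

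Lrpprc and Pprc1 were the steadiest members between the ATRA arrays. Lrpprc was at 6.42 and 6.62 with ATRA, against 7.89, 7.65 and 7.66 with DMSO, and Pprc1 at 7.49 and 7.28 with ATRA, against 9.16, 8.97 and 8.97 with DMSO. In both genes the ATRA arrays lay over 1 log2 unit below the lowest DMSO array and close to each other. Lrpprc fell by 1.21 (SE 0.15, limma adjusted p = 0.0122), or 2.32-fold, and Pprc1 fell by 1.65 (SE 0.14, limma adjusted p = 0.00747), or 3.14-fold.

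**Figure D1:**
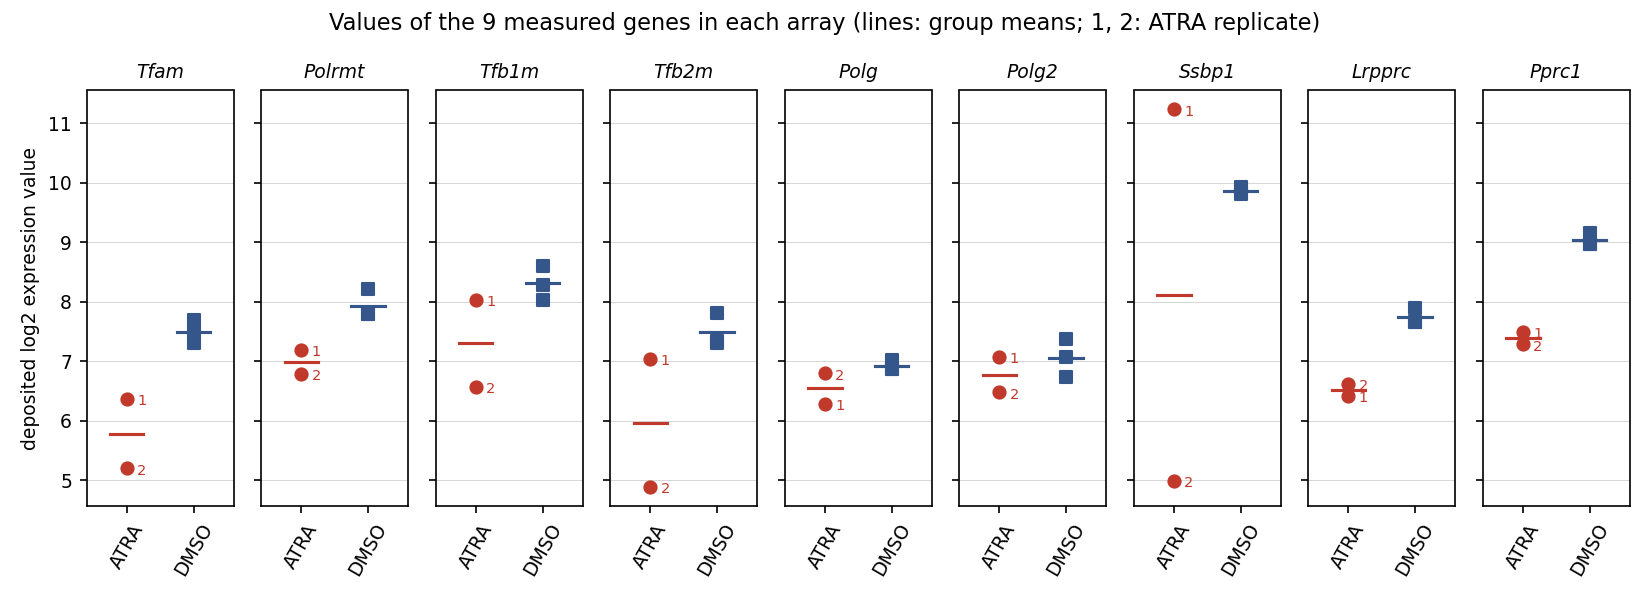
Deposited log2 expression value (vertical axis) of each of the 9 measured genes in the 2 ATRA arrays (circles, with their replicate number) and the 3 DMSO arrays (squares); horizontal lines are group means. The ATRA circles lie below all DMSO squares in 7 genes, overlap them in Polg2 and lie on either side of them in Ssbp1.

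Some deposited values recur to the last digit between arrays, which narrows the measured spread. Polrmt and Polg had the same value in DMSO replicates 2 and 3, and Polg2 the same value in ATRA replicate 1 and DMSO replicate 1. At least 2 of the DMSO values were equal in 2 of the 9 genes and in 39.9% of all genes.

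In all, 4 of the 9 measured members were lower and 0 were higher at a limma adjusted p of 0.05, against 15.5% of all 22180 genes lower and 6.48% higher. At an unadjusted p of 0.05 the members' counts were also 4 and 0. Both ATRA values lay below all DMSO values in 7 members, against 29.2% of all genes, and above them in 0 members, against 33.0% of all genes. The median difference was -1.21 over the 9 members and 0.16 over all genes. With each array centred on its own median, the median over all genes was -0.11, 4542 genes were lower and 560 higher, and Tfam, Polrmt, Lrpprc and Pprc1 were again the members under the threshold. When DMSO replicate 1, 2 or 3 was left out, 0 members and 0 genes passed, with 4 members lower at an unadjusted p of 0.05 each time, and all 9 differences stayed negative. Without ATRA replicate 1, 7 members were lower and 0 higher, and without ATRA replicate 2, 4 were lower and Ssbp1 was higher (log2 difference 1.37). Where 1 ATRA array is left, its spread is taken from the DMSO arrays. In these bulk samples, fewer cells of a type and less RNA per cell cannot be told apart.

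The share of lower genes depended on the level of a gene in DMSO, and the members lie in the range where it is high. Values in the ATRA arrays were compressed, with an SD over all features of 1.77 and 1.49 in ATRA, against 1.96 to 1.97 in DMSO. The 2 ATRA arrays also differed from each other over all genes, with a Pearson correlation of 0.736, against 0.986 to 0.992 among the DMSO arrays. Of 3409 genes at a DMSO mean of 7 to 8, 28.1% passed as lower, and of the 5 members in that range, 3 did. Among 2582 genes from 8 to 9 the share was 52.4%, and Tfb1m, the member there, did not pass. Of 1223 genes from 9 to 10, 57.5% passed as lower, and of the members there Pprc1 passed and Ssbp1 did not. Polg lies between 6 and 7, where 2.65% of genes passed as lower. The part of this trend in the members' calls was assessed by subtracting from each array a smoothed curve of its difference from the DMSO mean, drawn over all genes by level.

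With that curve subtracted, 0 members passed in either direction (limma, 1 lower and 0 higher at an unadjusted p of 0.05) and the median difference of the members was 0.02, as was that of all genes. Pprc1 differed from the DMSO mean by -1.55 and -1.75 in ATRA replicates 1 and 2, where the curve stood at -1.21 and -2.23 for its level. Polrmt differed by -0.73 and -1.14, and the curve stood at -0.75 and -1.22. The remaining mean differences were 0.06 for Pprc1 (limma adjusted p = 0.902) and 0.04 for Polrmt (limma adjusted p = 0.917), so the direction of both turned.

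Tfam had the most negative difference of the members in that fit, though it did not pass. It differed from the DMSO mean by -1.12 and -2.30, where the curve stood at -0.51 and -0.79, and was left with a mean difference of -1.07 (SE 0.29, limma adjusted p = 0.124). Tfb2m, at nearly the same DMSO level, differed by -0.45 in ATRA replicate 1, where the curve stood at -0.50, and by -2.60 in replicate 2, where it stood at -0.78. Lrpprc was left with -0.39 (limma adjusted p = 0.337), of which replicate 1 gave -0.67 and replicate 2 gave -0.08. Ssbp1 stood 2.77 above the curve in replicate 1 and at -1.99 relative to it in replicate 2.

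**Figure D2:**
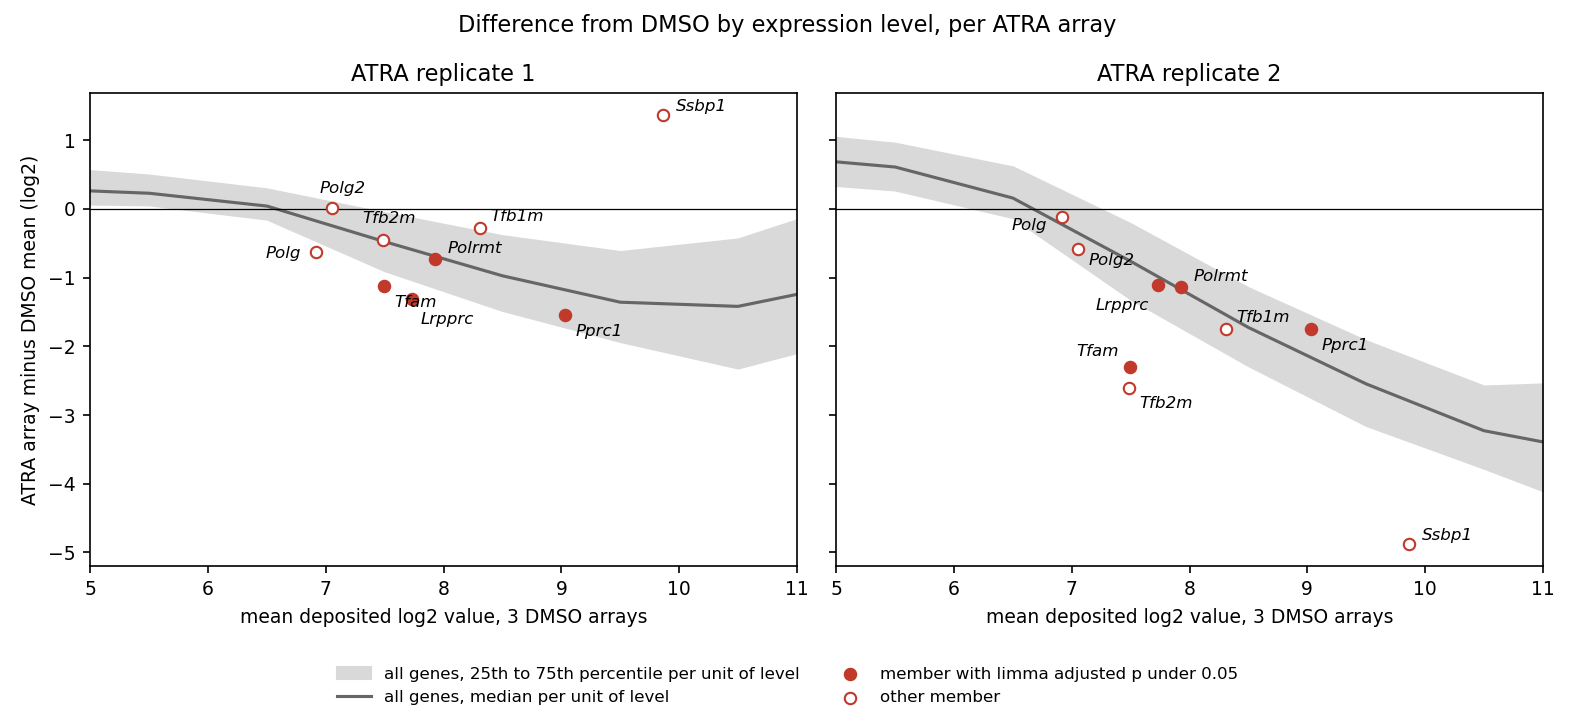
Difference of ATRA replicate 1 (left) and ATRA replicate 2 (right) from the DMSO mean in log2 units (vertical axis) against the mean deposited log2 value of the 3 DMSO arrays (horizontal axis); the grey line and band give the median and the 25th to 75th percentile of all genes per unit of level, filled circles are members with a limma adjusted p under 0.05 and open circles the other members. Polrmt lies close to the median line in both arrays, Tfam lies under the band in both, and Ssbp1 lies above it in replicate 1 and under it in replicate 2.

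The normalization mattered for the same 4 calls. After quantile normalization was repeated, Lrpprc (-1.08, limma adjusted p = 0.0255) and Pprc1 (-1.01, limma adjusted p = 0.0233) passed, and Tfam (-1.80, limma adjusted p = 0.0798) and Polrmt (-0.60, limma adjusted p = 0.151) did not. After cyclic loess normalization 0 members passed (limma, 2 lower at an unadjusted p of 0.05), with Tfam at -1.63 (limma adjusted p = 0.0606) and Lrpprc at -0.75 (limma adjusted p = 0.062). With the deposited values, 2 of the 5 measured genes with an ETS match fell, Tfam and Polrmt, as did 2 of the 4 without one, Lrpprc and Pprc1. This was a count of few genes, on calls that changed with the normalization. Any link of the letters to the response was not tested.

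**Figure D3:**
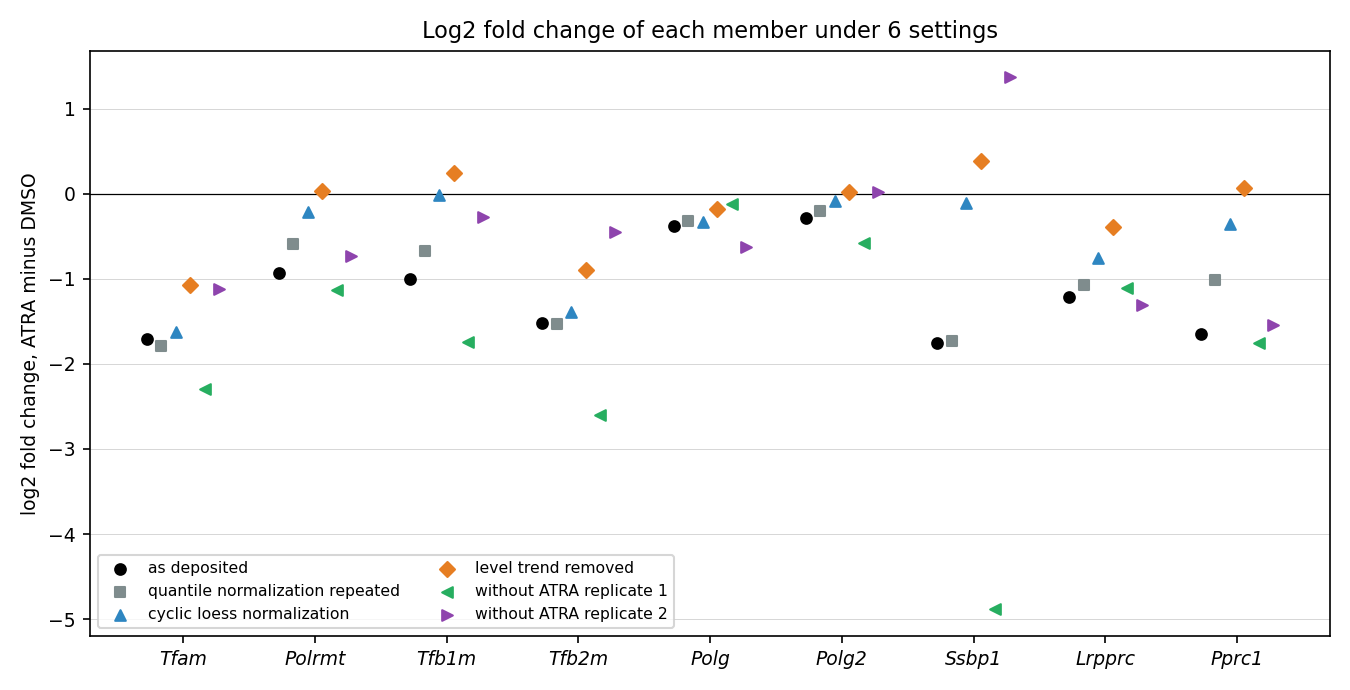
Log2 fold change of each member, ATRA minus DMSO (vertical axis), with the deposited values and under 5 other settings, 1 marker per setting. Tfam, Tfb2m, Polg and Lrpprc stay below 0 in all 6, whereas Polrmt, Tfb1m, Polg2, Ssbp1 and Pprc1 are above 0 with the level trend removed.

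Other nuclear genes of mitochondrial DNA upkeep were lower in part. Of 14 measured genes for replication, repair and nucleoid structure, 6 fell, 0 rose and 8 did not pass, with a median of -0.79. Among all genes, 15.5% were lower. This list averaged 7.72 to 7.85 in the DMSO arrays, and 28.1% of all genes at a level of 7 to 8 passed as lower. With the level trend removed its median was -0.14 and 0 of its genes passed as lower. Lonp1, the matrix protease that degrades TFAM, fell by 2.49 (SE 0.17, limma adjusted p = 0.0068), at 6.61 and 6.79 in ATRA and 9.19 ± 0.21 (SD, n = 3) in DMSO. It differed from the DMSO mean by -2.59 and -2.40 in ATRA replicates 1 and 2, where the level curve stood at -1.26 and -2.37. Falls were also found for Fen1 (-2.01), the flap nuclease shared with nuclear replication, Dna2 (-1.58), a nuclease and helicase of both compartments, and Atad3a (-0.93), a membrane ATPase linked to nucleoids. Twnk, which encodes the replicative helicase Twinkle, was at 5.87 and 6.87 in ATRA and 7.44 ± 0.20 in DMSO (log2 difference -1.06, limma adjusted p = 0.0937).

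Of 10 measured genes that supply nucleotides for mitochondrial DNA, 2 fell, 0 rose and 8 did not pass (median -0.61). This lies near the 15.5% of all genes that were lower. The list averaged 7.70 to 7.84 in the DMSO arrays, where 28.1% of all genes at a level of 7 to 8 passed as lower. With the level trend removed its median was 0.21, and 0 genes passed as lower and 1 as higher. Tk2, the mitochondrial thymidine kinase, fell by 2.54 (SE 0.27, limma adjusted p = 0.0103), and Sucla2, a succinyl-CoA ligase subunit, by 0.64 (limma adjusted p = 0.026). Slc25a33, a pyrimidine nucleotide carrier, differed by -0.32 (limma adjusted p = 0.145) and Abat, the mitochondrial GABA transaminase, by 0.38 (limma adjusted p = 0.163).

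With the deposited values, genes for elongation and termination of mitochondrial transcription had the only positive median of these lists, 0.43 over 6 measured genes. Of these, 1 rose, 0 fell and 5 did not pass, against 6.48% of all genes higher and 15.5% lower. With the level trend removed their median was 0.35. Mterf1b, a copy of the termination factor gene, rose by 4.19 (SE 0.41, limma adjusted p = 0.0089), at 9.65 and 9.96 in ATRA and 5.62 ± 0.64 in DMSO. Its near-identical copy Mterf1a differed by 0.94 (limma adjusted p = 0.13), and signal of the copies may be mixed on the array. Tefm, the elongation factor that lets POLRMT move past early stops, was at 6.07 and 4.88 in ATRA and 6.38 ± 0.19 in DMSO (log2 difference -0.91, limma adjusted p = 0.159). Mterf2 differed by 0.61 (limma adjusted p = 0.2).

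Mitochondrial RNA processing and decay was the largest of these lists and held the most lower genes. Of 22 measured genes, 13 fell, 0 rose and 9 did not pass (median -1.33), against 15.5% of all genes lower. The list averaged 8.18 to 8.35 in the DMSO arrays, and 52.4% of all genes at a level of 8 to 9 passed as lower. With the level trend removed its median was -0.12 and 0 of its genes passed as lower. Pde12, a mitochondrial deadenylase, fell by 1.80 (limma adjusted p = 0.007), and changes of -2.06 and -1.75 were found for Fastk and Tbrg4, RNA-binding proteins of the FASTK family. Hsd17b10, a subunit of mitochondrial RNase P, fell by 1.30 (limma adjusted p = 0.0136).

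Of 18 nuclear regulators of mitochondrial biogenesis, 6 fell, 0 rose and 12 did not pass (median -1.001), against 15.5% of all genes lower. They averaged 7.83 to 7.91 in the DMSO arrays, and 28.1% of all genes at a level of 7 to 8 passed as lower. With the level trend removed their median was -0.16, and 0 passed as lower and 1 as higher. Nrf1 fell by 0.94 (limma adjusted p = 0.0402), and among the GABP subunits Gabpa, which binds the ETS letters, fell by 1.23 (limma adjusted p = 0.0343) and Gabpb2 by 1.07 (limma adjusted p = 0.012). Hcfc1, a coregulator of these factors, fell by 3.65 (limma adjusted p = 0.008), at 7.72 and 6.71 in ATRA and 10.87 ± 0.09 in DMSO. It differed from the DMSO mean by -3.15 and -4.16 in ATRA replicates 1 and 2, where the level curve stood at -1.44 and -3.58. Creb1 fell by 2.10 and Myc by 1.66 (limma adjusted p = 0.0372). In ATRA replicates 1 and 2, Creb1 differed by -1.62 and -2.58, where the curve stood at -1.39 and -2.85. Myc differed by -1.13 and -2.18, and the curve stood at -1.44 and -3.33. The PGC-1 coactivators beside Pprc1 did not pass, with differences of 0.30 for Ppargc1a (limma adjusted p = 0.266) and -0.36 for Ppargc1b (limma adjusted p = 0.0854). Esrra, the nuclear receptor that works with them, was at 8.27 and 8.45 in ATRA and 8.08 ± 0.12 in DMSO (log2 difference 0.28, limma adjusted p = 0.199). The 15 mitochondrially encoded genes of the list were not analysed here.

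**Figure D4:**
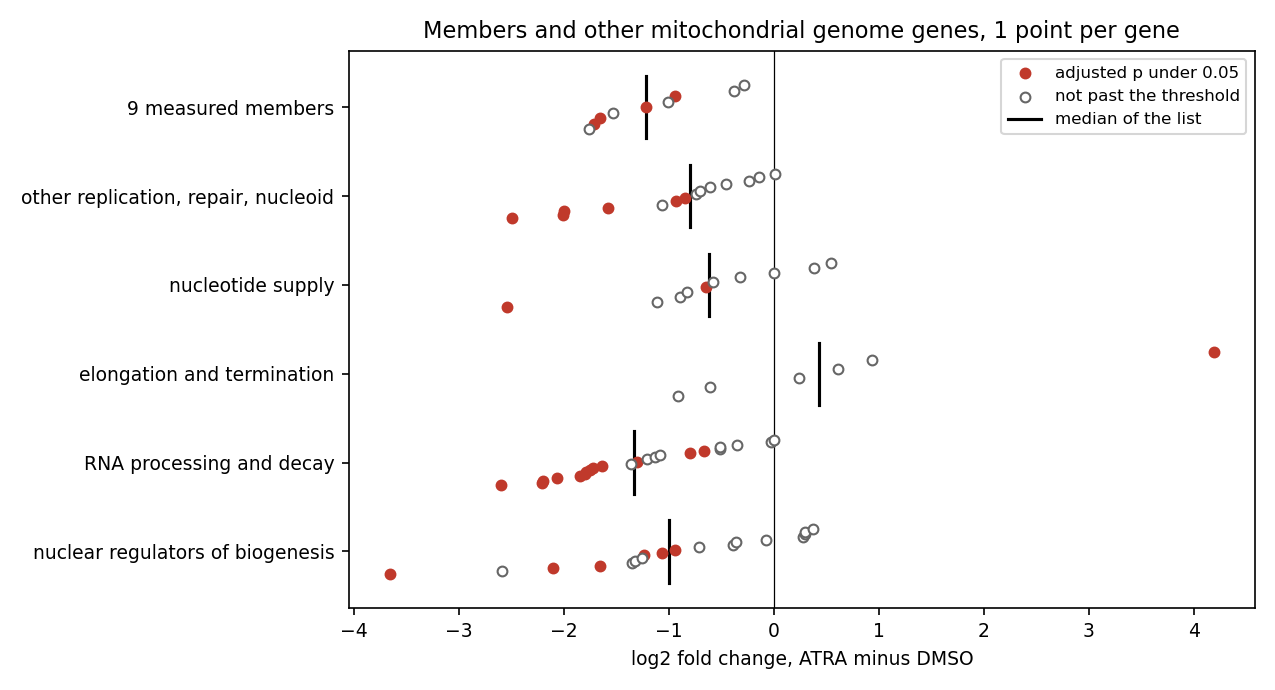
Log2 fold change, ATRA minus DMSO (horizontal axis), of the 9 members and of the genes in 5 other lists, 1 point per gene, filled where the limma adjusted p is under 0.05, with the median of each list as a vertical bar. All 9 members lie below 0, and the single filled point above 0 is Mterf1b.

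Over these 5 lists together, 27 of 70 measured genes were lower and 1 was higher, beside 15.5% and 6.48% of all genes, with a median of -0.87. Subtraction of the curve by level left 0 lower and 3 higher genes and a median of -0.03. No list is singled out by these counts.

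The values of Tfam over the 5 arrays, each gene set to its own mean, were closest to those of Ryk, Nfyc and D730005E14Rik, with mean absolute differences of 0.0514, 0.0521 and 0.0523 log2 units. Over only 5 arrays and among 22180 genes this is given as a description.

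Markers of the sorted cells were checked on the same arrays. All 10 measured HSC markers of 12 listed had a DMSO mean above the median of all features (6.07). Of these, 5 fell with ATRA, Kit, Mecom, Hlf, Gata2 and Fgd5, against 15.5% of all genes. By DMSO level, the share of all genes passing as lower was 2.65% from 6 to 7 and 28.1% from 7 to 8. It was 52.4% from 8 to 9 and 51.7% from 10 to 11. The 10 markers spanned DMSO means from 6.74 (Hoxb5) to 10.94 (Kit). Their mean value was 7.51 and 6.69 in the ATRA arrays and 8.55 to 8.84 in the DMSO arrays, and their median difference was -1.40, or -0.40 with the level trend removed. Among markers of other cells, S100a9, Cx3cr1, Blnk and Cd3g rose, by 0.57 to 1.04, 1 each among 10 neutrophil, 9 monocyte and macrophage, 8 B cell and 9 T and NK cell genes measured, and 0 of 4 erythroid genes passed, against 6.48% of all genes higher. Genes at a DMSO level of 5 to 6 as a whole had median differences of 0.23 in ATRA replicate 1 and 0.61 in replicate 2. Mean values of the neutrophil list were 6.21 and 6.15 in ATRA and 5.68 to 6.03 in DMSO, and those of the T and NK list 5.90 and 5.99 in ATRA and 5.26 to 5.42 in DMSO. In the monocyte and macrophage list they were 6.54 and 6.35 in ATRA and 6.15 to 6.28 in DMSO, in the B cell list 5.67 and 6.07 in ATRA and 5.38 to 5.49 in DMSO, and in the erythroid list 6.15 and 6.50 in ATRA and 6.28 to 6.37 in DMSO. The megakaryocyte genes averaged 7.59 and 7.79 in ATRA and 7.95 to 8.09 in DMSO. Of the 6 measured, 1 fell, Itga2b by 2.07, and 5 did not pass. At its DMSO level of 9 to 10, 57.5% of all genes passed as lower. With the level trend removed, the median difference was -0.06 for the neutrophil list (0.23 as deposited), -0.08 for the B cell list (0.42) and -0.08 for the erythroid list (0.24), so these turned in direction. It was 0.21 for the monocyte and macrophage list (0.39 as deposited), 0.18 for the T and NK list (0.60) and 0.52 for the megakaryocyte list (-0.12), the last of which also turned. The part of a change in cell makeup in the members' differences was not tested.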

How the data were processed

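The authors deposited log2 expression values, 1 per array feature and array, and the submitters' processing notes list RMA, oligo 1.36.1 and limma 3.28.20 without saying what each did. Build, array annotation and whether all arrays were normalized in a single run are not stated in the sources used here. Replicates and groups were taken from the sample titles.

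No filter was applied. Gene names came from the platform annotation and were brought up to date by gene ID. Among 41345 features, 23521 named 1 gene, 1814 named several and were not used for naming, and 16010 were not listed there. ATRA was compared with DMSO by limma 3.58.1 (R 4.3.3, lmFit and eBayes, two-sided) in 1 fit over all 22180 genes, with Benjamini-Hochberg adjustment over all genes, a threshold of 0.05, 3 residual and 1.52 prior degrees of freedom. The script was tested on simulated data with equal spread in both groups, capped at the median SD over genes, and no trend by level. That test does not cover the wider spread of the ATRA arrays or the trend by level seen here. With 2 against 3 arrays the number of arrays limits the precision, and an exact two-sided permutation test of 1 gene cannot give a p under 0.1.

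The level curve was a lowess fit (span 0.2) of each array's difference from the DMSO mean on the DMSO mean. The members and lists were chosen with earlier results of these data known. Named genes are the 10 members, up to 4 genes with the smallest p in each wider list, Nrf1, Gabpa, Ppargc1a, Ppargc1b, Esrra, Myc and Twnk, and the 3 genes closest to Tfam. Marker genes that passed were named after their values were seen. Promoter windows came from RefSeq (GRCm38.p6).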

Additional observations from a re-analysis of the deposited data

How the results depend on the processing

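The deposited values gave 4 members lower and 0 higher, 27 genes of the wider lists lower and 1 higher, and 3428 of all genes lower and 1437 higher. Leaving out 1 array at a time gave 0 to 7 members lower and 0 to 1 higher, 0 to 49 wider list genes lower and 0 to 6 higher, and 0 to 6783 genes lower and 0 to 7424 higher. All of the zeros for lower genes came from the fits without a DMSO array (limma, 5907 to 6065 genes and 4 members at an unadjusted p of 0.05). Array weights and the replicate number as a block each gave 0 members, 0 wider list genes and 0 genes in either direction. At an unadjusted p of 0.05, limma called 4377 genes with array weights and 5412 with the replicate block, and 3 and 4 members. Deviations from the group means correlated at 0.134 between the arrays numbered 1 and at 0.0983 between those numbered 2. The labels do not say whether arrays with the same number share an origin, so this is not known.

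Repeated quantile normalization gave 2 members lower, 14 wider list genes lower and 2 higher, and 1743 genes lower and 439 higher. Cyclic loess normalization gave 0 members lower, 8 wider list genes lower and 4 higher, and 1504 genes lower and 771 higher. With the level trend removed there were 0 members lower, 0 wider list genes lower and 3 higher, and 221 genes lower and 479 higher. Each array centred on its median gave 4 members lower, 4542 genes lower and 560 higher. All features in the fit gave 2 members lower and 717 genes higher. Of all genes, 931 were higher with dim genes left out and 3083 at an adjusted p under 0.1. The median difference over all genes was -0.11 after centring and 0.16 as deposited.

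The direction of 5 members turned with the level trend removed, to 0.0365 for Polrmt, 0.238 for Tfb1m, 0.0185 for Polg2, 0.387 for Ssbp1 and 0.0647 for Pprc1. With 1 array left out at a time, Polg2 ranged from -0.581 without ATRA replicate 1 to 0.0141 without ATRA replicate 2 (limma adjusted p = 0.999), and Ssbp1 from -4.88 to 1.37 (limma adjusted p = 0.00902). Tfam stayed between -2.30 and -1.07 over 17 alternatives (limma adjusted p from 0.00739 to 0.2), and its call was lost in 9 of them. Lrpprc stayed between -1.48 and -0.39 (limma adjusted p from 0.006 to 0.337) and lost its call in 7, Polrmt lost it in 10 besides the reversal, and Pprc1 in 6 besides the reversal. The cause of these shifts was not tested. Not every alternative could remove a call of Tfam, Polrmt, Lrpprc or Pprc1. Those at an adjusted p under 0.1 and with a 1.5-fold limit reuse the same fit, and each of these genes fell by more than 1.5-fold. The mean of all features leaves their values unchanged, since each has 1 feature. No measure of signal over background was used here, so how far it limits dim values, such as those of Tfam in ATRA, was not tested.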
